A study of Mus musculus with 6 samples.

Results

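The small integrin-binding ligand, N-linked glycoprotein (SIBLING) genes Dspp, Dmp1, Ibsp, Mepe and Spp1 lie side by side on mouse chromosome 5. The chromatin around these 5 genes was examined in immortalized mouse osteoblasts with and without the kinase gene Fam20c. ATAC-seq, in which the transposase Tn5 inserts adapters into accessible DNA, was carried out on 3 libraries of OB Fam20c f/f, the floxed osteoblast line (labelled as control), and 3 of OB Fam20c KO, which was made from that line by lentiviral Cre recombinase. Both groups are cultured cells of 1 immortalized line grown in αMEM with fetal bovine serum, and nothing in the labels says that the libraries of a group came from separate cultures, so p-values measure the spread between these libraries, which may be technical. The members were the 5 named genes and every merged region from 50 kb before Dspp to 50 kb after Spp1, chr5:104120703-104491053 in GRCm38. Peaks of the 6 libraries were merged into 1 region wherever they shared 1 bp or more. The window of 370 kb held 30 of the 89410 regions of the series, and the 5 genes were 5 of 21887 protein-coding genes.

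SIBLING proteins are acidic, secreted phosphoproteins of the mineralized matrix that bind integrins through an Arg-Gly-Asp motif. FAM20C phosphorylates them in the secretory pathway on serines of the Ser-x-Glu type. Spp1 encodes osteopontin, which binds hydroxyapatite and restrains crystal growth, and it is expressed early and widely in the osteoblast lineage. Ibsp encodes bone sialoprotein, which promotes the nucleation of hydroxyapatite and marks mineralizing osteoblasts. Dmp1 and Mepe are typical of osteocytes, where they take part in mineralization and in the control of phosphate, and Dspp encodes the precursor of the main phosphoproteins of dentin.

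The sequences before the starts of 4 of the genes are shown because the peaks separate them, with a peak over the start of Spp1 and none over the starts of Dmp1, Ibsp and Mepe in any of the 6 libraries. Of the 21263 starts of protein-coding genes, 51.0% had a region with a peak in each library and 56.7% had one in at least 1 library, so that a start without a peak was common. RefSeq (GRCm38.p6) gave 6 starts for these 4 genes, and a window for Dspp was not used here. Spp1 and Dmp1 have a pair of starts each, and the one shown is the Spp1 start with the peak and the Dmp1 start nearest to a region. Each line gives the 250 bases before a start, all on the plus strand. They are chr5:104434861-104435110 for the first of the pair of Spp1 starts, chr5:104202367-104202616 for the second of the pair of Dmp1 starts, chr5:104299037-104299286 for Ibsp and chr5:104325079-104325328 for Mepe. Capitals mark the RUNX core TGTGGT, the CCAAT box CCAAT and the TATA box TATAAA on either strand, and no marked motif overlapped another.
Spp1: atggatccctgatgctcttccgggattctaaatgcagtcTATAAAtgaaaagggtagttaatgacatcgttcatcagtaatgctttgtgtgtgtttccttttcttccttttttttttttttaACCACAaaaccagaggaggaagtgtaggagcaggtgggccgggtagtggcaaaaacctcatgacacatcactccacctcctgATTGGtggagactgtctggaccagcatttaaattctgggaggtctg
Dmp1: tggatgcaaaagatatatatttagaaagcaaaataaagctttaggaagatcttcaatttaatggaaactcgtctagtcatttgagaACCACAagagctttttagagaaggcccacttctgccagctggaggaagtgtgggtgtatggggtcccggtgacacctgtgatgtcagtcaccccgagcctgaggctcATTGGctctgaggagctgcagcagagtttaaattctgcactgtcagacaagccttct
Ibsp: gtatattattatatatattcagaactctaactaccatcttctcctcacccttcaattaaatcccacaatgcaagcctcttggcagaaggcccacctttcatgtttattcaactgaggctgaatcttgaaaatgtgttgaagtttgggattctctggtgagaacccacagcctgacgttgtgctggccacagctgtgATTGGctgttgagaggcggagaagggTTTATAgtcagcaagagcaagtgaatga
Mepe: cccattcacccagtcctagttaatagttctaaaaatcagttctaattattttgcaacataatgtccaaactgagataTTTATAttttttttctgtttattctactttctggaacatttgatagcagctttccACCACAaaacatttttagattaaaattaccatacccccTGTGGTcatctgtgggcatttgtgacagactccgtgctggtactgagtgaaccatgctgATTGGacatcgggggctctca

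The CCAAT box was held by 5 of the 6 start windows of these genes, all but the second of Spp1, against 33.8% of the 32851 promoter windows of the table. In the 4 windows shown it was on the minus strand, read as ATTGG, and began 46 bases before the start in Spp1, 57 in Dmp1, 54 in Ibsp and 21 in Mepe. A RUNX core, the site read by the osteoblast factor RUNX2, was found at 3 of the 6 starts, against 14.0% of all windows. These were the windows shown for Spp1, Dmp1 and Mepe, and neither the other start of Spp1 and of Dmp1 nor that of Ibsp held it. TATAAA was found at 3 of the 6 starts, in Spp1, 211 bases before the start shown, in Ibsp, 28 bases before it, and in Mepe, against 12.4% of all windows. The AP-1 motif TGANTCA (6.75% of all windows) was at 0 of the 6, the homeodomain motif TAATTA (4.84%) at 2, Mepe and the second of Spp1, and the E-box CANNTG (66.2%) at 6. In the windows shown, the share of G and C was 43.6% for Spp1 and also for Ibsp, 45.6% for Dmp1 and 38.0% for Mepe, against a median of 52.4% over all windows. With so few starts, these counts do not set the start with a peak apart from the others. These matches describe letters and not bound sites.

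The strength of a peak is given as its standing, the percentile of its −log10 q (the significance that MACS2 gave the peak) among the peaks of the same library, with 100 as the highest. The −log10 q depends on the depth of a library, so that raw values were compared only within a list. A gene was read over its RefSeq span extended by 3 kb on either side. The order of the 5 genes was Spp1, Dmp1, Mepe, Dspp and Ibsp, as the plot of the best peak at each gene shows. Spp1 stood above Dmp1 in 6 of 6 libraries and their ranges did not overlap. Dmp1 stood above Mepe in 6 of 6 libraries, although the ranges over libraries overlapped. Dspp had a peak in 1 library and Ibsp in none. Of all protein-coding genes, 63.7% had a shared region, one with a peak in all 6 libraries, and 23.7% had no region in any library.

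**Figure D1:**
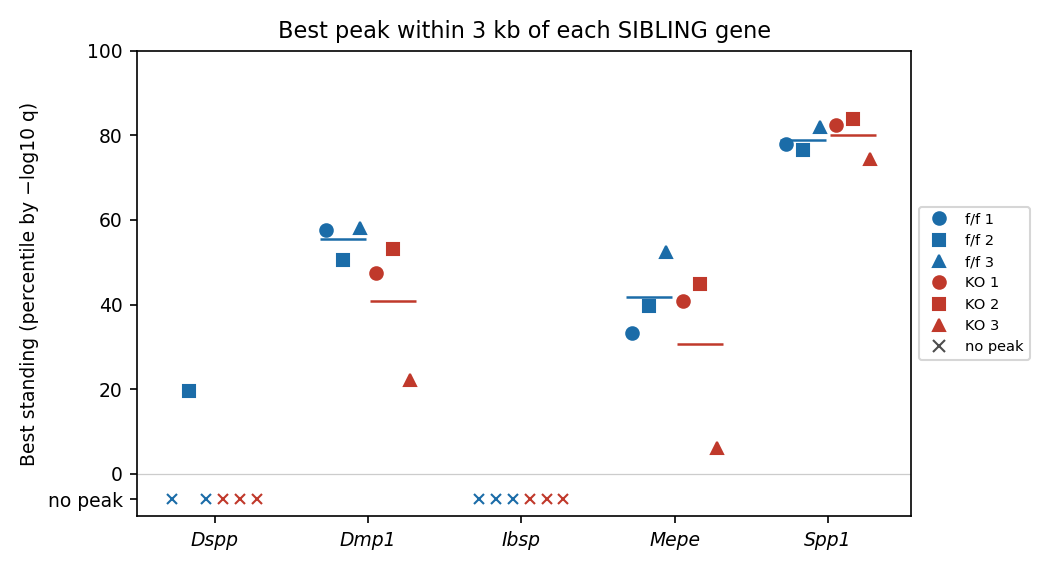
Best standing (percentile of −log10 q within the list, y axis) of the peaks within 3 kb of each of the 5 genes (x axis) in 3 f/f libraries (blue) and 3 KO libraries (red); horizontal lines are group means where all 6 libraries had a peak and crosses mark a library without one. Spp1 lies between 74.3 and 83.8, Dmp1 between 22.2 and 58.0, Mepe between 6.04 and 52.4, and Ibsp has no peak in any library.

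The first Spp1 start was covered by a peak in every library. This region, chr5:104434135-104435570, was 1436 bp wide and spanned the whole of the printed Spp1 sequence and the start of the gene. Its peak had a −log10 q of 70.1, 70.9 and 131 in f/f replicates 1, 2 and 3, and of 132, 183 and 34.7 in KO replicates 1, 2 and 3. The standings were 77.9, 76.6 and 82.0 in f/f and 82.3, 83.8 and 74.3 in KO. KO replicates 1 and 2 were the highest of the 6, KO replicate 3 was the lowest, and the groups overlapped. The means were 78.8 ± 2.85 (SD, n = 3) in f/f and 80.2 ± 5.08 (SD, n = 3) in KO, and the difference of 1.32 percentile points was smaller than the spread within KO (exact permutation test, two-sided, p = 0.8). Among the 13991 protein-coding genes with a peak in every library, 27.8% had a lower mean best standing than Spp1.

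The summit of this peak lay 42, 106 and 35 bp before the start in f/f replicates 1, 2 and 3 and 35, 35 and 36 bp before it in the KO libraries. In 5 of the 6 libraries it was therefore within 50 bp of the start, close to the CCAAT box of the printed sequence, and f/f replicate 2 was the exception. The fold over the local background at the summit was 9.98, 8.09 and 10.1 in f/f and 12.2, 11.9 and 8.76 in KO. The second Spp1 start, inside the gene, had no peak over its window and lay 622 bp beyond the end of the region. A second region with a peak in all 6 libraries, chr5:104432865-104433315, ended 1796 bp before the gene. Its standings were 56.8, 43.6 and 49.3 in f/f and 52.6, 57.2 and 21.1 in KO, lower than those at the start in every library.

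**Figure D2:**
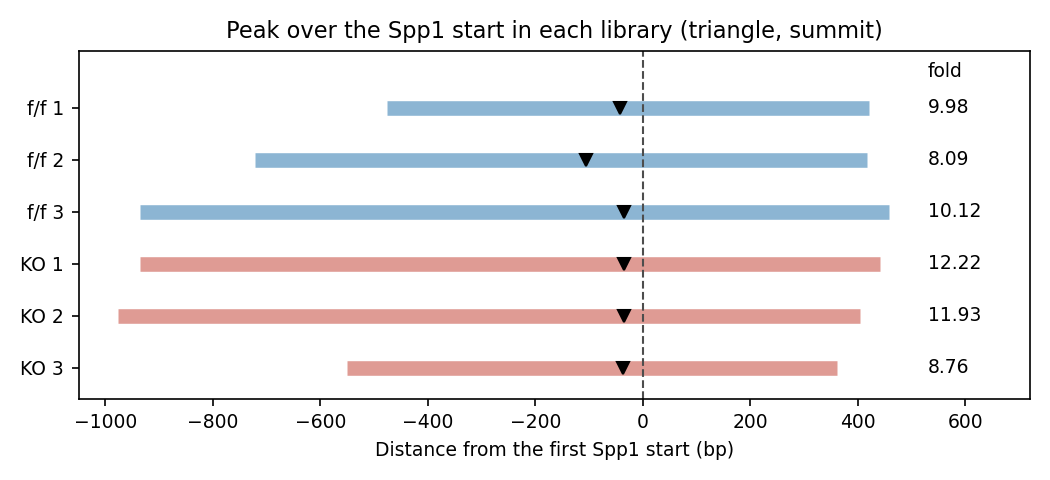
Extent of the peak over the first Spp1 start (bars, distance from the start in bp on the x axis) and its summit (triangles) in each f/f (blue) and KO (red) library, with the fold over the local background printed at the right. All 6 peaks span the start, and 5 of the 6 summits lie 35 to 42 bp before it.

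Ranks within the cluster were read for 4 of its strongest regions. A region 26488 bp before the Spp1 gene, chr5:104407235-104408623, ranked first of the cluster by −log10 q in all 3 f/f libraries, and ranked 3, 3 and 5 in KO replicates 1, 2 and 3. The region over the Spp1 start ranked 3, 3 and 4 in f/f and 2, 2 and 1 in KO. A region 5864 bp beyond Mepe, chr5:104344475-104345668, ranked 2, 4 and 3 in f/f and 1, 1 and 2 in KO. The region over the start of Pkd2, a gene beyond Spp1, ranked 4, 2 and 2 in f/f and 4, 4 and 3 in KO, which overlapped. Ranks within the cluster do not depend on the length of a list, but they depend on each other. The exchange of places among the first 3 of these regions was not tested. How often ranks part in this way elsewhere in the series was not counted. Among the shared regions alone, KO stood all above f/f at 21.1% of those of the series and all below at 20.9%. On that scale the groups overlapped at the region before Spp1 and at the Pkd2 start and did not at the other 2. The standings of the region before Spp1 were 83.3, 83.1 and 87.8 in f/f and 79.6, 83.5 and 54.2 in KO, which overlapped. Those of the region beyond Mepe were 81.8, 73.4 and 82.2 in f/f and 86.7, 84.8 and 69.3 in KO, which overlapped as well.

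Dmp1 had 3 regions inside its span and none over either start. The strongest, chr5:104210487-104211344, had a peak in all 6 libraries, with standings of 57.7, 50.5 and 58.0 in f/f and 47.4, 53.2 and 22.2 in KO. The groups overlapped, and the difference in means of -14.4 percentile points was not larger than the spread (55.4 ± 4.27 in f/f and 40.9 ± 16.5 in KO, SD, n = 3, exact permutation test, two-sided, p = 0.2). Without KO replicate 3 it was -5.06. Only 2.82% of the genes with a peak in every library had a lower mean best standing. A second region, chr5:104201029-104202247, ended 370 bp before the second Dmp1 start and so just before the printed Dmp1 sequence. Its peaks stood at 35.7, 21.6 and 52.6 in f/f and at 6.29 and 17.0 in KO replicates 1 and 2, with no peak in KO replicate 3. All 3 f/f values were above the KO values here, a difference that was not tested because a library had no value. Such an order was common among the shared regions of the series, to which this region does not belong. Without KO replicate 3, KO standings were all below f/f in 25.7% of them. The share among regions that KO replicate 3 lacked was not counted. The same order was found at chr5:104380437-104381882, another region that KO replicate 3 lacked. The third region had a peak in f/f replicate 3 only, with a standing of 6.36.

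Beyond the end of Dmp1 lay 2 regions with a peak in 2 f/f libraries and in no KO library. One, chr5:104219007-104219331 and 4905 bp from the gene, had a peak in f/f replicates 2 and 3 (standings of 25.7 and 30.7) and in no KO library. The other, chr5:104220335-104221111, had a peak in f/f replicates 1 and 2 (4.83 and 3.60) and in no KO library. All of these peaks stood at 30.7 or lower in their lists. They were the 2 of 30 regions (6.67%) with a peak in at least 2 f/f libraries and no KO library, against 8.54% of the series. No region of the window had a peak in at least 2 KO libraries and in no f/f library, against 2.98% of the series. The region chr5:104382932-104383560, between Mepe and Spp1, had a peak in KO replicates 1 and 2 (standings of 15.9 and 7.82). Of the f/f libraries, only f/f replicate 3 had a peak there, at a standing of 0.136. At Mepe, the region chr5:104327412-104327900 had a peak in all 3 f/f libraries and in KO replicate 2 only of the KO libraries. Its standings were low, 24.5, 2.96 and 35.0 in f/f and 12.8 in KO replicate 2. How often such a pattern was found in the series was not counted.

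Ibsp stood in the longest stretch of the window without a peak. From chr5:104252498-104327411, 74.9 kb, no library of either group had a peak, and the gene span chr5:104299287-104311472 lay inside this stretch. The nearest region was 15.9 kb from the span and 28.1 kb from the start. At least this distance to the nearest region was found for 18.0% of protein-coding genes. The lists hold only peaks that passed the q-value of the peak caller, so that this says that no accessible site was detected at the depth of these libraries, and not that the chromatin was closed. Dspp had 1 region, chr5:104178575-104178965, with a peak in f/f replicate 2 (−log10 q of 6.85, standing of 19.5) and in no other library.

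Mepe had 4 regions inside its span and a further one 1144 bp beyond it. None covered the start, and the nearest began 2083 bp inside the gene. The region chr5:104333162-104333781 had a peak in all 6 libraries, and its standings were 31.2, 39.6 and 52.4 in f/f and 41.0, 44.9 and 6.04 in KO. The best standing at the gene was the same except in f/f replicate 1, where another region stood at 33.3. It was 41.8 ± 9.69 in f/f and 30.6 ± 21.4 in KO (SD, n = 3), a difference of -11.1 that was smaller than the spread within KO (exact permutation test, two-sided, p = 0.7). Its direction rested on KO replicate 3, without which the difference was 1.15. Of the genes with a peak in every library, 0.865% had a lower mean best standing than Mepe.

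By count, most of the accessible regions lay outside the genes, as did most of the window, of which the 5 genes filled 15.5%. Of the 30 regions, 9 overlapped 1 of the 5 genes, 2 overlapped other genes (Gm31048 and Pkd2) and 19 lay outside every RefSeq gene span. The interval of 96.5 kb between Mepe and Spp1 held 13 regions by their centres, the one over the Spp1 start included, and 7 of the 13 had a peak in all 6 libraries. The interval of 85.2 kb between Dmp1 and Ibsp held 4, of which 1 had a peak in all 6. The regions between Mepe and Spp1 were found in 10, 10 and 12 places in f/f and in 11, 13 and 7 in KO. The strongest region that KO replicate 3 lacked was also there, chr5:104380437-104381882, with standings of 70.9, 71.1 and 75.4 in f/f and 67.0 and 66.1 in KO replicates 1 and 2. Beyond Spp1, the gene Pkd2, which encodes the cation channel polycystin-2, had a peak over its start in all 6 libraries, with standings of 75.4, 77.4 and 84.4 in f/f and 78.8, 79.4 and 66.7 in KO.

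The other shared regions of the interval between Mepe and Spp1 were weaker. At chr5:104373880-104375487, 35269 bp beyond Mepe, the standings were 69.9, 58.3 and 70.4 in f/f and 65.7, 62.7 and 49.1 in KO. At chr5:104358279-104359357 they were 58.3, 44.3 and 63.0 in f/f and 55.9, 62.2 and 24.1 in KO. At chr5:104396044-104396781 they were 41.4, 28.4 and 45.1 in f/f and 37.5, 48.4 and 10.2 in KO. The groups overlapped at all 3, and KO replicate 3 was the lowest library at each. Near the other end, chr5:104445689-104446560 lay 4636 bp beyond Spp1 and stood at 71.3, 68.8 and 79.9 in f/f and at 78.1, 74.7 and 49.4 in KO. A weaker region 409 bp before the Pkd2 span, chr5:104452847-104453573, stood at 51.9, 40.4 and 55.2 in f/f and at 59.3, 41.2 and 21.0 in KO. Between Dmp1 and Ibsp the shared region was chr5:104251606-104252497, with 64.1, 61.1 and 74.3 in f/f and 60.8, 63.8 and 57.8 in KO, and it formed the near edge of the stretch without peaks around Ibsp. Gm31048, a long noncoding RNA gene in that interval, had a region in 5 libraries, and the pseudogene Gm3157 had none.

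**Figure D3:**
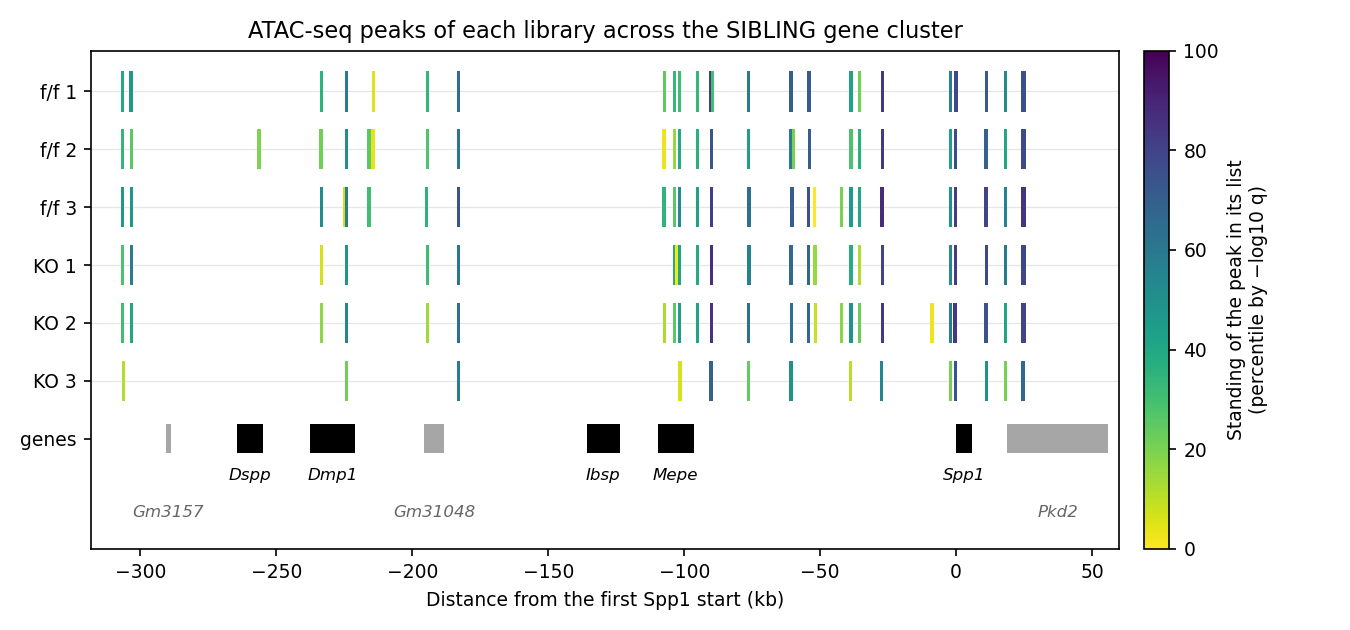
Peaks of each of the 3 f/f and 3 KO libraries (rows) by distance from the first Spp1 start in kb (x axis), coloured by their standing in their own list, with gene spans below (black, the 5 genes; grey, other genes); narrow peaks were widened to be visible. The stretch around Ibsp holds no peak in any library, and the highest peak of each library lies between Mepe and the Spp1 start or, in KO 3, over that start.

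To compare the groups, the regions with a peak were counted in each library. There were 23, 25 and 26 in f/f replicates 1, 2 and 3 and 23, 25 and 14 in KO replicates 1, 2 and 3. KO replicates 1 and 2 fell within the f/f range and KO replicate 3 was the lowest. The means were 24.7 ± 1.53 in f/f and 20.7 ± 5.86 in KO (SD, n = 3), and the difference of -4 regions was smaller than the spread within KO (exact permutation test, two-sided, p = 0.5, where 0.1 is the smallest p that 3 libraries against 3 allow). The kb covered by peaks were 15.8, 19.7 and 20.5 in f/f and 14.9, 17.2 and 7.65 in KO, a difference of -5.48 kb (18.7 ± 2.49 in f/f, 13.2 ± 4.96 in KO, SD, n = 3, exact permutation test, two-sided, p = 0.2). Without KO replicate 3, the differences were -0.667 regions and -2.69 kb.

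KO replicate 3 had the shortest list of the series, 32958 peaks against 62781 to 74797 in the other 5, and the difference in regions moved with it. Per 10000 peaks of the list, the cluster held 3.59, 3.98 and 3.48 regions in f/f and 3.59, 3.87 and 4.25 in KO. When each library was limited to its 32958 strongest peaks, 12, 9 and 10 regions were left in f/f and 12, 11 and 14 in KO, so that the direction turned to 2 regions more in KO (exact permutation test, two-sided, p = 0.3). The weakest peak kept had a −log10 q of 1.31 in KO replicate 3, whose list was not cut, and of 20.4 to 39.3 in the other 5 libraries. Under this limit Spp1 kept a peak in 6 of 6 libraries, Dmp1 in 5 and Mepe in 1, KO replicate 3, and Dspp and Ibsp had none. Every one of the 14 regions of KO replicate 3 had a peak in all other libraries as well. In the whole series this held for 93.4% of its regions. Peaks were also read at marker genes of the labelled cell type and of other cell types. Of all protein-coding genes, 63.7% had a region with a peak in all 6 libraries. Of 10 osteoblast markers, 9 had a region with a peak in all 6 libraries, led by Runx2 and Sparc, while Bglap had none. The same held for 6 of 6 osteocyte, 1 of 2 odontoblast (Nes), 4 of 4 cartilage (led by Comp and Sox9), 2 of 4 fat (Cebpa and Pparg), 0 of 3 muscle, 3 of 4 epithelial (led by Krt8 and Cdh1) and 2 of 3 blood genes (Cd68 and Spi1). Peaks were thus found near markers of other lineages as well, and with lists this short the counts do not check the labelled cell type. The osteocyte list, led by Fgf23 and Pdpn, holds Dmp1 and Mepe, and the odontoblast list holds Dspp. Fam20c itself had a peak in all 6 libraries, with best standings of 92.8 to 94.8 in f/f and 95.1 to 97.8 in KO. Peak lists do not show the deletion of an exon, so this does not check the knockout.

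**Figure D4:**
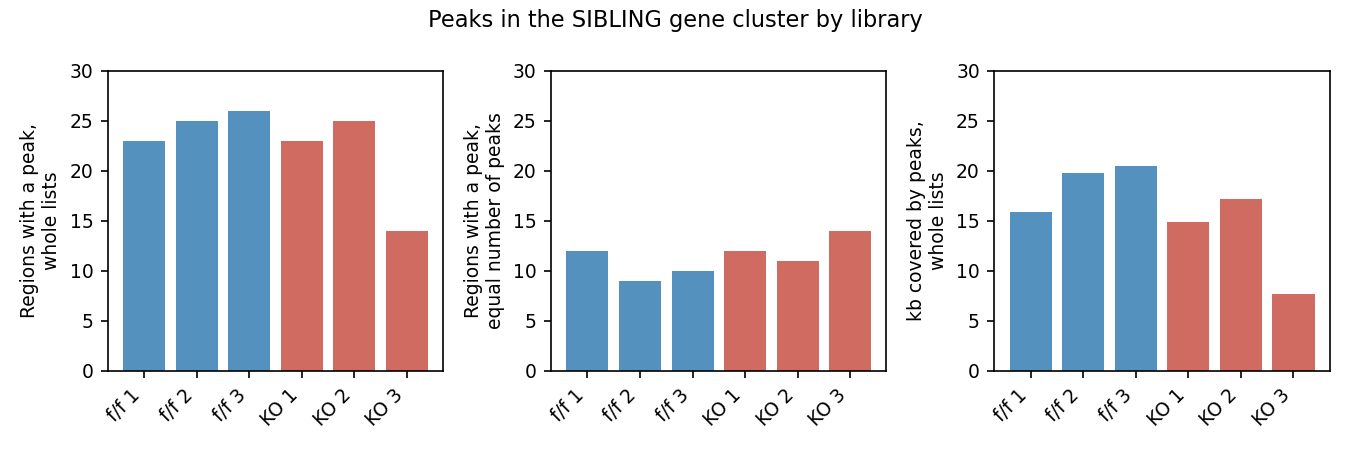
Number of cluster regions with a peak in each library from whole lists (left), the same from the 32958 strongest peaks of each library (middle), and kb covered by peaks (right), for f/f (blue) and KO (red). KO 3 is lowest at the left (14 regions) and at the right (7.65 kb), and highest in the middle (14 regions).

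Loss or gain of regions between the groups was read from presence. An f/f-only region had a peak in 3 of 3 f/f libraries and in 0 of 3 KO libraries, and a KO-only region the reverse. In the whole series, 3.75% of regions were f/f-only and 0.179% were KO-only. In the SIBLING cluster 0 of 30 regions were f/f-only and 0 of 30 were KO-only. A count of 0 in 30 allows a share of up to 10.0%, which covers counting error only, so that a share as low as that of the series could not have been told from none. In the cluster 14 regions (46.7%) had a peak in all 6 libraries, against 33.4% of the series, and 7 more (23.3%) had one in all but KO replicate 3, against 19.2% of the series.

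The 14 shared regions allowed a comparison of strength. The mean of their standings was 61.5, 55.7 and 66.5 in f/f replicates 1, 2 and 3 and 61.0, 62.1 and 38.3 in KO replicates 1, 2 and 3. KO replicate 3 was the lowest and the other 5 libraries overlapped. The difference in means was -7.38 percentile points (61.2 ± 5.40 in f/f, 53.8 ± 13.4 in KO, SD, n = 3, exact permutation test, two-sided, p = 0.6). Over the same 14 regions without KO replicate 3 it was 0.372. Over all 29849 shared regions of the series, the median shift from f/f to KO was -5.72 points, and in the cluster it was -6.66. The shared regions of the cluster stood lower in every library than those of the series. Their median standing was 54.4 to 66.7 in f/f and 36.6 to 62.4 in KO, against 75.9 to 79.7 and 54.4 to 76.8 over the series.

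KO standings were all above f/f in 0 of the 14 regions, against 3.62% of the shared ones of the series, and all below in 1, against 25.5%. That 1 was the first region of the window, chr5:104128104-104129027, which lay before Dspp, with 39.7, 33.8 and 46.2 in f/f and 28.1, 30.2 and 11.0 in KO. Without KO replicate 3, 2 of the 14 were all above (23.7% in the series), the Spp1 start and the region 5864 bp beyond Mepe, and 1 was all below (25.7%).

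Because of the short list, standings were also taken among the shared regions alone, a scale on which every library holds the same 29849 regions. The mean over the 14 regions was then 31.4, 25.4 and 31.3 in f/f and 30.0, 30.1 and 34.1 in KO, a difference of 2.02 points (exact permutation test, two-sided, p = 0.6). On this scale the Spp1 start stood at 53.3, 51.4 and 55.4 in f/f and at 62.2, 65.0 and 71.8 in KO. All KO libraries were above all f/f libraries, by 12.97 points in the mean (exact permutation test, two-sided, p = 0.1, the smallest p of this design). The region beyond Mepe stood at 61.3, 45.1 and 55.9 in f/f and at 71.4, 67.3 and 66.2 in KO, again without overlap. These 2 of 14 regions (14.3%) compare with 21.1% of the shared regions of the series, and the 0 of 14 with KO all below compare with 20.9%. Groups that do not overlap in this way were thus no more frequent in the cluster than in the series. By fold over the local background, the Spp1 start stood at 72.1, 73.8 and 77.9 in f/f and at 80.5, 78.4 and 80.1 in KO.

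**Figure D5:**
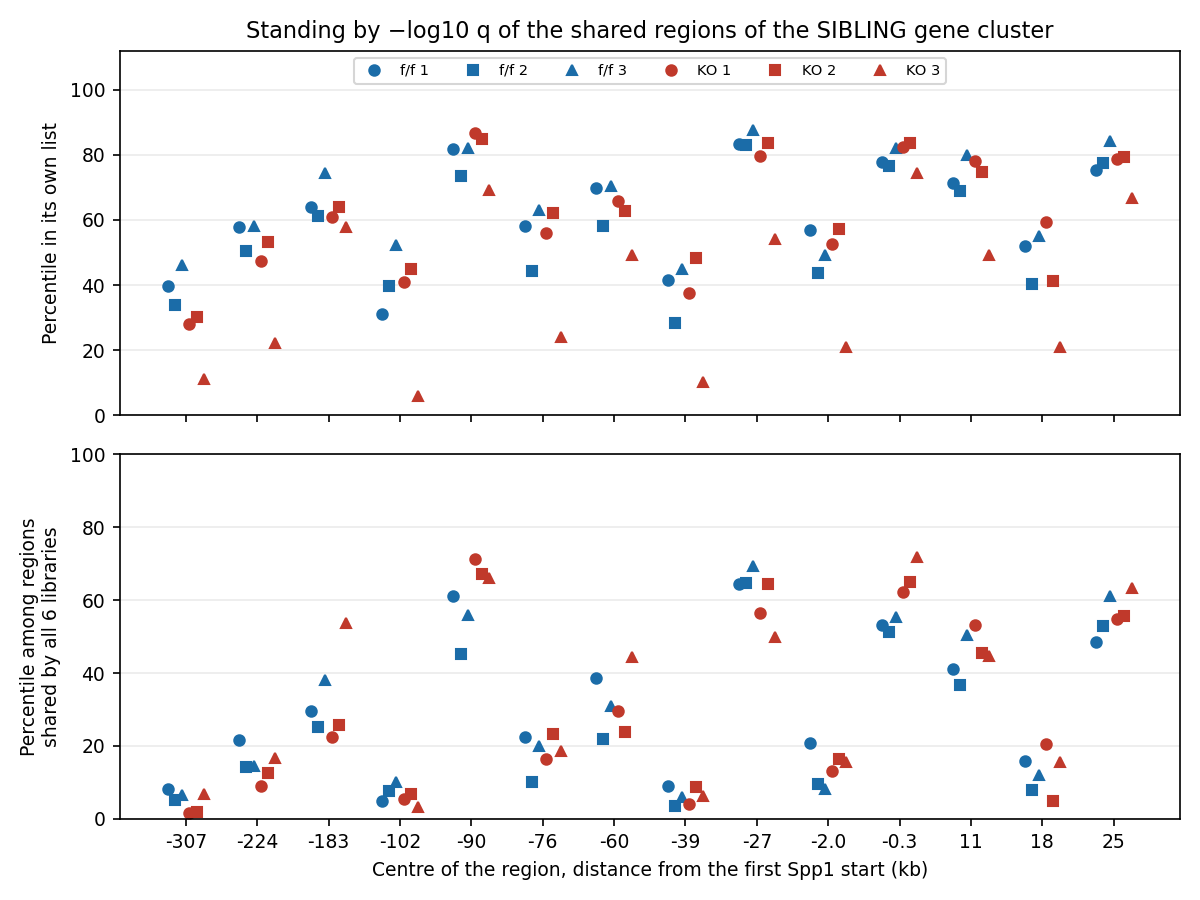
Standing by −log10 q of the 14 shared regions, those in which no library lacked a peak, in f/f (blue) and KO (red), within the library's own list (top) and among the regions shared by all 6 libraries (bottom); the x axis gives the centre of each region as distance from the first Spp1 start in kb. KO 3 is the lowest at the top at each of the 14 regions, and at the bottom all 3 KO libraries lie above all 3 f/f libraries at -90 and -0.3 kb.

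The relatives of the SIBLING genes by descent were read in the same way. These were Sparc and Sparcl1, 5 genes of the enamel matrix and its cells (Amelx, Ambn, Enam, Amtn and Odam) and 5 casein genes. A region with a peak in all 6 libraries was found at 2 of the 12 (16.7%), against 63.7% of protein-coding genes. They were Sparc, which encodes the collagen-binding matrix protein osteonectin (mean best standing of 78.5), and Sparcl1 (49.3). The other 10 had no region in any library, like Ibsp. The 3 genes whose best standings over the 6 libraries differed least from those of Spp1, among 13990 others, were Xpo7, Map3k7cl and Dok2, by 1.07, 1.14 and 1.17 points on average. For Dmp1 they were Grrp1, Slc25a34 and Prrg4 (2.25 to 2.44 points), and for Mepe Eml2, Prrxl1 and Krtap5-4 (2.51 to 3.34 points).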

How the data were processed

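The data were ATAC-seq peak lists of 6 libraries, 3 of the f/f control and 3 of the KO line. By the methods of the study, the authors trimmed and aligned the reads to mm10 and called peaks with MACS2 2.1.2 (q-value limit 0.05), and each library has its own list. The treatment of duplicates and blacklisted regions was not given in the sources used here. The deposited lists give a score (a whole number that follows the −log10 q), the fold (ratio) over the local background, and the −log10 p and −log10 q of each peak. They hold no read counts, so the DESeq2 comparison of the study was not repeated. The number of peaks in a list does not measure depth. By the read statistics of the study, KO replicate 3, with the shortest list, had more mapped reads than f/f replicate 1. It also had the lowest share of uniquely mapped reads of the 6 libraries. Why its list was short was not tested.

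Peaks were merged at 1 shared bp. Groups and replicate numbers came from the sample labels. Single values per library were compared by exact permutation tests over the 20 assignments of the libraries, with 3 tests on single genes. The merging and the tests were tested on simulated data. Gene spans and starts came from RefSeq (GRCm38.p6, the coordinates of mm10). The 5 genes, the gene lists and the motifs were chosen with earlier results of these data known. The genes and regions named were the 5 genes, other genes of the window, regions shared by all libraries or group-specific, the 2 highest of a marker list and the 3 genes most like each gene. Other regions were named after their values were seen, among them those at Dmp1, Dspp and Mepe and the one that KO replicate 3 lacked. The alternatives were a −log10 q of at least 5, equal peak numbers, another overlap, windows around summits, each library left out, other flanks and extensions, standing by fold, a peak in at least 2 of 3 libraries and the replicate number as a block. Standing among shared regions and counts per 10000 peaks were added after seeing the data. Python 3.11.15, numpy 2.4.6, pandas 2.3.3 and matplotlib 3.10.9 were used.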

Additional observations from a re-analysis of the deposited data

How the results depend on the processing

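No difference between the groups passed a test in the cluster under any alternative, and with 3 libraries a group the exact test cannot go below 0.1, so this says nothing of stability. The difference in regions (-4) ranged from -6.17 to -0.667 with a library left out. It turned to 2 with equal peak numbers and to 0.218 per 10000 peaks. The covered bp (-5475) ranged from -7443 to -2691 with a library left out and was -1276 with equal peak numbers. The mean standing of shared regions (-7.38) ranged from -11.5 to -1.52 with a library left out and the shared regions chosen anew, and it turned to 5.12 with equal peak numbers and to 2.02 among shared regions. In these reversals the lists were made equally long or the scale allowed for their length. KO replicate 3 was then the highest library per 10000 peaks (4.25), with equal peak numbers (14 regions) and among shared regions (34.1). Without it, the difference was 0.0451 per 10000 peaks and 0.693 among shared regions.

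With a library left out, the difference at Spp1 ranged from -0.493 (without KO replicate 2) to 4.22, that at Dmp1 from -20.6 to -5.06, and that at Mepe from -18.3 to 1.15. At Spp1 it was 5.05 by fold, 12.2 with equal peak numbers and 12.97 among shared regions, each with p = 0.1 (exact permutation test). Among shared regions it was -4.11 at Dmp1 and -2.40 at Mepe. The difference at Mepe turned to 1.10 with an extension of 10 kb, which takes in the region 5864 bp beyond the gene. No value could be had for Mepe at a −log10 q of at least 5, or for Dmp1 and Mepe with equal peak numbers, since a library then had no peak. Ibsp had 0 libraries with a peak under all alternatives run. Dspp had 1, and 0 with equal peak numbers or without f/f replicate 2. The f/f-only count of 0 became 1 without f/f replicate 1, without f/f replicate 3 or without KO replicate 2, and 2 with a peak in at least 2 of 3 libraries (6.67%, against 8.54% of the series). The KO-only count was 0 under all alternatives run.

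The replicate number as a block gave p = 0.25 for the covered bp, the smallest p of that exact permutation test, and -4 regions with p = 1. Deviations of libraries with the same number correlated at -0.0857, -0.214 and -0.379 over 29849 shared regions, so the numbers do not pair the libraries.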
